A study of Mus musculus with 3 samples.

Results

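Histone gene expression was examined in LT-HSCs, the long-lived haematopoietic stem cells of the marrow that maintain the blood, after total body irradiation (TBI) of mice. The histone genes were taken as the probe sets whose gene symbol is a numbered H1f, H2ac, H2bc, H3c or H4c symbol, or an older Hist1h to Hist4h symbol. This rule found 38 of 23185 named probe sets, each of a different gene: 8 of linker histone H1, 9 of H2A, 11 of H2B, 7 of H3 and 3 of H4. All 38 carried the current form of symbol. H1f0 and H1f5 were not analysed here. The rule used names only and no measured value.

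The cells came from marrow of female C57Bl/6 mice aged 8 to 10 weeks in 3 groups. Mice were non-irradiated, or received 8 Gy at CDR, or 8 Gy as FLASH, in which the dose is given at an ultra-high rate. The labels do not write CDR out, and it is read here as conventional dose rate. Each array was made from 10000 LT-HSCs, and the labels give 15 days after TBI for all 3 samples, the non-irradiated one included. Each group had 1 array, so no value has a replicate check, no test was possible, and "higher" and "lower" describe these arrays. How many mice each sample pooled, and which surface markers defined the sorted cells, is not given in the sources used here.

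Histones package DNA. Octamers of H2A, H2B, H3 and H4 form the nucleosome core, and H1 binds the linker DNA between nucleosomes. Most genes of the family are replication dependent: they lie in clusters, lack introns, are transcribed in S phase, and their mRNAs end in a stem-loop instead of a poly(A) tail, bound by the protein SLBP and cut with the help of the U7 small nuclear RNA. Others, such as H1f10, are made independently of replication. Some clustered genes can also yield polyadenylated transcripts in cells that are not dividing. The labelling assay named in the labels is a whole transcript one, which is primed along the RNA and does not need a poly(A) tail. Clustered histone genes are close copies of each other, and which copy a probe set reads is uncertain.

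The promoters of 9 members that differed from the non-irradiated array by more than 0.2 log2 on an irradiated array are shown first. They were chosen after the values were seen, to cover each histone type and both directions, because the values below are ordered by type. Of the 38 members, 34 had a promoter in the RefSeq promoter table (build GRCm38.p6), and these had 35 windows of 300 bases, from 250 bases before to 50 after the transcription start. Each stretch below is the 150 bases before the start, read 5′ to 3′ on the gene's strand. Capitals mark matches, on either strand, to TATAAA (the TATA box), CCAAT (the CCAAT box), ATTTGCAT (the octamer known from H2B promoters) and AAACACA (the box known from H1 promoters).
H1f2 (chr13:23738657-23738806, plus strand): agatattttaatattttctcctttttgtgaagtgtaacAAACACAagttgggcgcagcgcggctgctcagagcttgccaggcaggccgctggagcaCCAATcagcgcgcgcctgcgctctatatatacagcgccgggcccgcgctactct
H1f4 (chr13:23622559-23622708, minus strand): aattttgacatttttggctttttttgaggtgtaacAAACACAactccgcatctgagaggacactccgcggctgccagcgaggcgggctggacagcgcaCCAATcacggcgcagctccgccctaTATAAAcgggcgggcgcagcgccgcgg
H1f10 (chr6:87981483-87981632, minus strand): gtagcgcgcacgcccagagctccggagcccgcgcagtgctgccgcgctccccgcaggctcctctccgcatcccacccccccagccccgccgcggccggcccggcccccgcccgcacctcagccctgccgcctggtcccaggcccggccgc
H2ac6 (chr13:23683960-23684109, minus strand): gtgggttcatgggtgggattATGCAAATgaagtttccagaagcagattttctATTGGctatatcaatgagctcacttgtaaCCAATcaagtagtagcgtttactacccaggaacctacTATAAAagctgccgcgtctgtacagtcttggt
H2bc8 (chr13:23571250-23571399, plus strand): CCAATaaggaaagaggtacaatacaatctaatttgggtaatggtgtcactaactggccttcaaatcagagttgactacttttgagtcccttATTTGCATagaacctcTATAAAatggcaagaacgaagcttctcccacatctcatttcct
H2ac4 (chr13:23750938-23751087, plus strand): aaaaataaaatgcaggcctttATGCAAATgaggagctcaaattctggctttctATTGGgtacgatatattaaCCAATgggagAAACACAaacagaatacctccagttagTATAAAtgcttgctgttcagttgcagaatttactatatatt
H2ac20 (chr3:96220881-96221030, minus strand): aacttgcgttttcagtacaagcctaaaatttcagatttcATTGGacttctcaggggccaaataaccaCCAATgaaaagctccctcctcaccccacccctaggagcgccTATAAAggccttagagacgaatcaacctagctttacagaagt
H3c10 (chr13:21717478-21717627, plus strand): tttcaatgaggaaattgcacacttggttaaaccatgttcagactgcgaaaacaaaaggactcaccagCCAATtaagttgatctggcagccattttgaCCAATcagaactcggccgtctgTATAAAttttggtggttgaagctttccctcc
H4c12 (chr13:21750554-21750703, minus strand): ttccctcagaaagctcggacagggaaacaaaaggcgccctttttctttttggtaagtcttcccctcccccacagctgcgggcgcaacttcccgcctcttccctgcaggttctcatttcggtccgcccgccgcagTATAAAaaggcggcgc

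These letters were unevenly spread over the histone types. CCAAT occurred in all 24 windows of H2A, H2B and H3 genes, in 6 of 8 H1 windows and in 0 of 3 H4 windows, against 37.4% of all 32851 windows in the table. The octamer occurred in 5 of 9 H2A and 5 of 10 H2B windows and in no window of the other types, against 1.74% of all windows. AAACACA stood in 4 of 8 H1, 2 of 9 H2A and 1 of 10 H2B windows, against 7.18% of all, and TATAAA in 20 of the 35 member windows, against 13.6%. These counts take a match anywhere in the window and on either strand. The only CCAAT of H3c14 and H3c15 lies after the start, at 29 and 14. The only TATAAA of H2bc22, H2bc7, H2bc15 and H2ac8 lies on the opposite strand, at -212, -209, -190 and -142. That of H3c11 and H4c9 lies far before the start, at -147 and -137. Windows of adjacent genes can overlap. Those of H2ac8 and H2bc8 count the same octamer, and those of H2ac1 and H2bc1 likewise share an octamer. Matches of different motifs did not overlap in the member windows, leaving out H2bc6, which has more than 1 window. H1f2 and H1f4 carry AAACACA at positions -112 and -115 from the start, while the H1f10 window holds none of the 4 motifs. H2ac6 and H2bc8, both lower after irradiation, and H2ac4 and H2ac20, both higher, all hold the octamer, which in H2ac20 lies at -200, outside the stretch shown. A match is a description of letters and not a bound site.

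A member was called detected when it read above the 95th percentile of 1364 genes for odorant, pheromone and trace amine receptors, which blood cells are taken not to express, on the brighter array of a pair. In log2 units this level was 4.15 with no irradiation, 4.16 for CDR and 4.22 for FLASH. Above it on all 3 arrays lay 31 of the 38 members, so none passed through 1 array alone. The other 7 read between 1.78 and 3.95 and were under the level on every array. They were the testis genes H1f6 and H1f7, the oocyte linker gene H1f8, the testis pair H2ac1 and H2bc1, and the H3 genes H3c7 and H3c11. Of the 31, the 5 genes H2ac8, H2bc6, H2bc22, H3c15 and H4c8 lay close to it, under the 99th percentile of the receptor genes on at least 1 array.

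**Figure D1:**
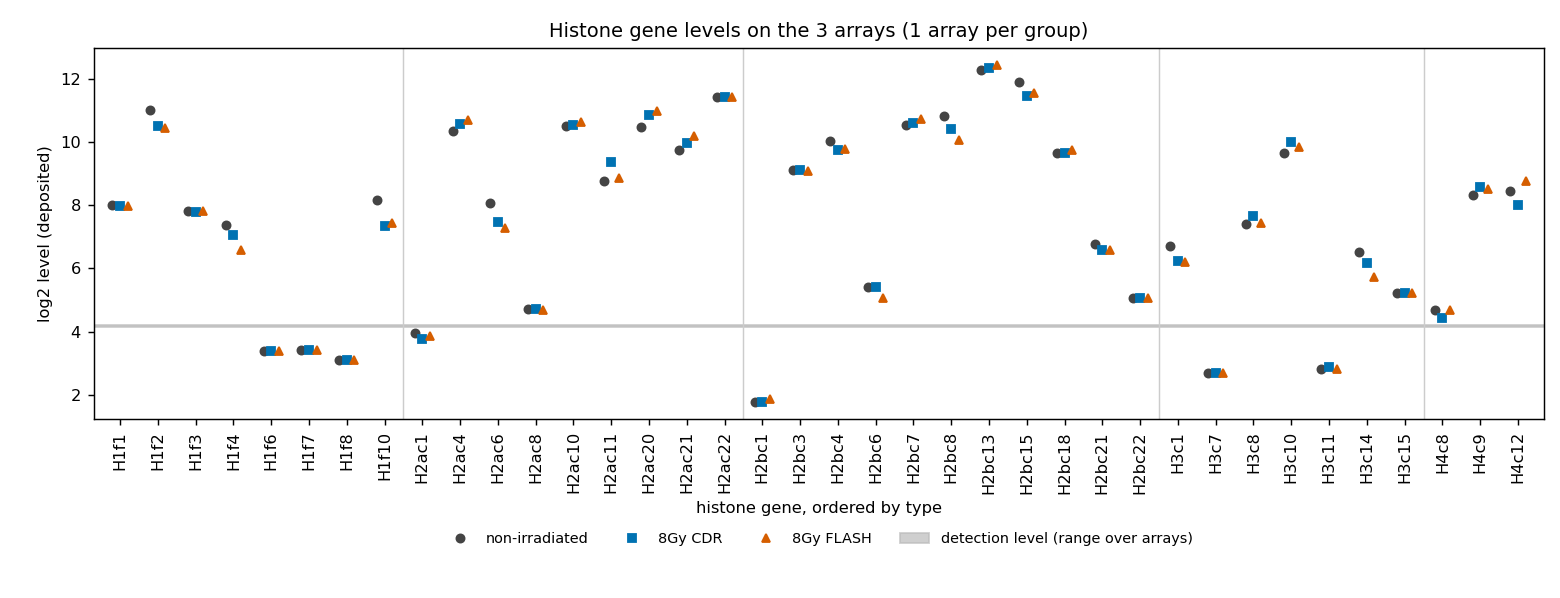
Deposited log2 level of each of the 38 histone genes (horizontal axis, ordered by type) on the non-irradiated (circle), 8Gy CDR (square) and 8Gy FLASH (triangle) arrays, 1 array per group; the grey band is the detection level, 4.15 to 4.22. H1f6, H1f7, H1f8, H2ac1, H2bc1, H3c7 and H3c11 lie under the band on every array, and levels of different genes are not comparable.

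Histone genes on the irradiated arrays differed from the non-irradiated one in both directions. H1f10, H1f4, H2ac6, H2bc8 and H3c14 were among the lower genes and H2ac20, H2ac21, H2ac11 and H3c10 among the higher. At least 2-fold higher were 0 of 31 detected members after CDR, where the share among all 13448 detected genes was 0.766%, and 0 after FLASH, with 1.17% of 13288. At least 2-fold lower were also 0 on either array, against 2.36% and 1.75%. Nothing is read from these counts of 0, because the shares are small and the members few. The members' median difference was 0 in both comparisons, as it was for all detected genes. Smaller differences were therefore counted at a log2 size of more than 0.2 (1.15-fold), a limit set after the values were seen. By that count 11 members were lower and 7 higher on the CDR array, or 35.5% and 22.6% of the 31, with 15.9% and 16.6% of all detected genes as background. On the FLASH array 10 were lower and 6 higher, or 32.3% and 19.4%, against 16.8% and 16.1% of all detected genes. At 1.5-fold, 1 member was higher (3.2% of all detected genes) and 2 lower (5.38%) on CDR, and 0 higher (3.59%) and 5 lower (5.3%) on FLASH. An exact tie with the non-irradiated array, common in these deposited values, was found for 6 detected members after CDR (19.4%) and 4 after FLASH (12.9%), against 34.9% and 33.2% of all detected genes.

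Both irradiated arrays were set against the same non-irradiated array, so the values on that array enter both differences. The 11 members more than 0.2 lower on CDR were H1f2, H1f4, H1f10, H2ac6, H2bc4, H2bc8, H2bc15, H3c1, H3c14, H4c8 and H4c12. The 7 more than 0.2 higher there were H2ac4, H2ac11, H2ac20, H2ac21, H3c8, H3c10 and H4c9. On FLASH the 10 lower ones were H1f2, H1f4, H1f10, H2ac6, H2bc4, H2bc6, H2bc8, H2bc15, H3c1 and H3c14, and the 6 higher ones H2ac4, H2ac20, H2ac21, H2bc7, H3c10 and H4c12. Under cyclic loess 5 were higher on CDR, without H2ac4 (0.17) and H2ac21 (0.20, just under the limit), and 4 on FLASH, without H2bc7 (0.16) and H3c10 (0.17), while the lower counts stayed at 11 and 10.

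**Figure D2:**
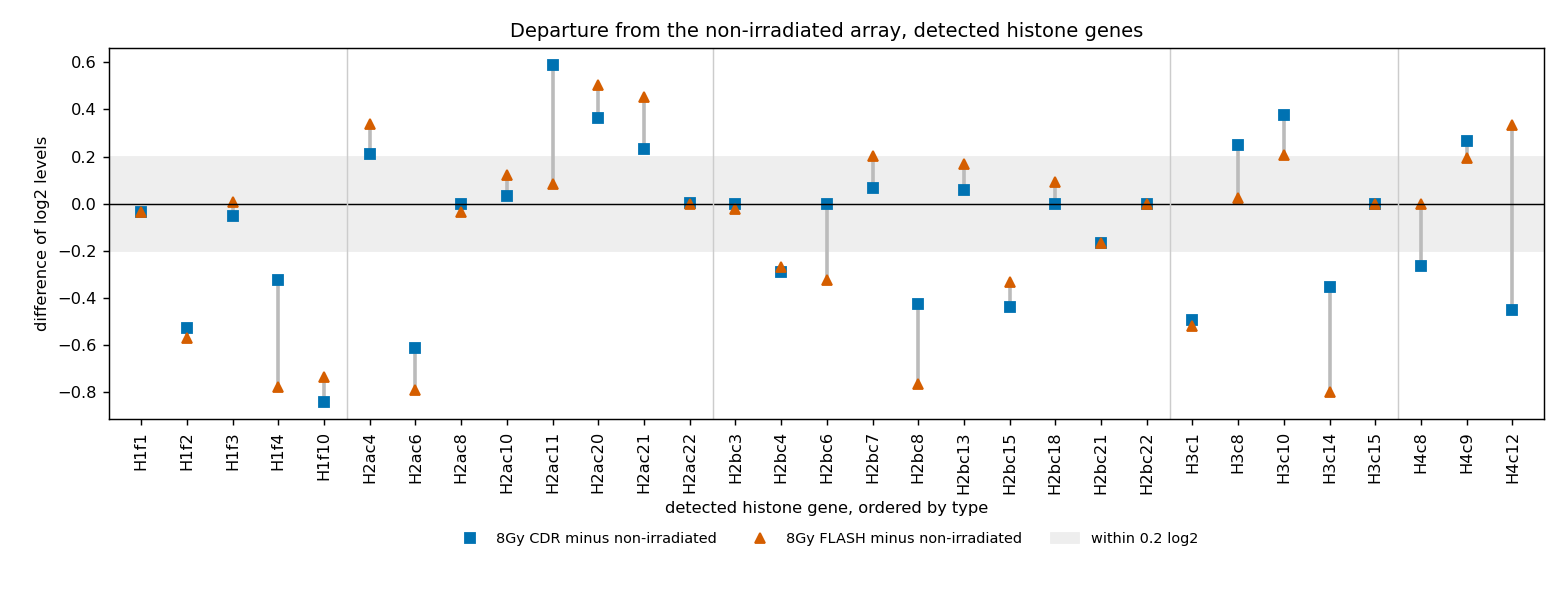
Difference of log2 levels from the non-irradiated array (vertical axis) for the 31 detected histone genes, ordered by type, on the 8Gy CDR (square) and 8Gy FLASH (triangle) arrays, 1 array per group, joined by a line for each gene; the grey band marks differences within 0.2. H1f2, H1f4 and H1f10 lie below the band on both arrays, H2ac4, H2ac20 and H2ac21 above it, and H4c12 on opposite sides.

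Of 5 detected linker histone genes, H1f2, H1f4 and H1f10 were more than 0.2 lower on each irradiated array, beside 15.9% of all detected genes on CDR and 16.8% on FLASH. More than 0.2 higher were 0 of 5, beside 16.6% and 16.1% of all detected genes, and with so few members nothing is read from that 0. H1f10, the replication-independent linker histone H1X, read 8.18 with no irradiation, 7.34 after CDR and 7.44 after FLASH. Its differences of -0.84 (1.79-fold) and -0.73 (1.66-fold) lay below those of 96.9% and 96.6% of detected genes. H1f2, a somatic H1 gene of the main cluster, read 11.0 with no irradiation against 10.5 after either, a difference of -0.53 on CDR and -0.57 on FLASH. The low values were thus on both irradiated arrays in these genes. H1f4, another somatic H1 gene, read 7.37 with no irradiation, 7.05 after CDR and 6.59 after FLASH, or -0.32 and -0.78, and was lowest on the FLASH array. H1f1 and H1f3, of the same somatic set, were close to the non-irradiated array, H1f1 at -0.04 on both and H1f3 at -0.05 and 0.01. The median of the 5 was -0.32 on CDR and -0.57 on FLASH, beside 0 for all detected genes.

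H2A genes, which encode one of the core histones, were more often higher than lower, and H2ac6 was the 1 member more than 0.2 lower. H2ac20 read 10.5 with no irradiation, 10.8 after CDR and 11.0 after FLASH, differences of 0.36 and 0.50. Its neighbour H2ac21 went from 9.75 to 9.98 and 10.2, or 0.23 and 0.45. H2ac4 went from 10.4 to 10.6 and 10.7, or 0.21 and 0.34. In these 3 genes the non-irradiated array was the lowest and the FLASH array the highest. H2ac11 was high on the CDR array alone, with 8.77 on non-irradiated, 9.36 on CDR and 8.85 on FLASH, and its CDR difference of 0.59 (1.51-fold) was exceeded by 3.1% of detected genes. H2ac6 was low on both irradiated arrays, with 8.07, 7.46 and 7.28 on the non-irradiated, CDR and FLASH arrays. Its differences were -0.61 and -0.79, the latter 1.73-fold. H2ac10 was at 0.03 and 0.12, H2ac22 at 0.00 on both, and H2ac8 at 0 and -0.03. The H2A medians were 0.12 on CDR and 0.10 on FLASH, with 4 and 3 of 8 detected members more than 0.2 higher and 1 lower in each. Among all detected genes 16.6% and 16.1% were more than 0.2 higher, and 15.9% and 16.8% lower. With 8 members nothing is read from the 1 lower. Under cyclic loess 2 H2A members were higher on CDR and 3 on FLASH, with 1 lower in each.

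H2B genes, which encode the partner of H2A in the core, were mostly level or lower. H2bc8 read 10.8 with no irradiation, 10.4 after CDR and 10.1 after FLASH, with differences of -0.43 and -0.76. H2bc15 read 11.9, 11.5 and 11.6 on the non-irradiated, CDR and FLASH arrays, or -0.44 and -0.33, and H2bc4 read 10.0, 9.76 and 9.78, or -0.29 and -0.27. For both of these the irradiated arrays were close to each other and under the non-irradiated one. H2bc6, near the detection level, was low on FLASH alone, at 5.40, 5.40 and 5.08. H2bc7 was the single member more than 0.2 higher, on the FLASH array at 0.20, and read 0.07 on CDR. H2bc13 stood at 0.06 and 0.17, H2bc18 at 0 and 0.09, H2bc3 at 0 and -0.02, H2bc21 at -0.17 on both and H2bc22 at 0 on both. Of 10 detected members, 3 were more than 0.2 lower and 0 higher on CDR, with a median of 0. On FLASH 4 were lower and 1 higher (0 higher under cyclic loess), with a median of -0.10. Among all detected genes 15.9% and 16.8% were lower, and 16.6% and 16.1% higher. With so few members nothing is read from the 0 and the 1 higher.

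H3 genes split. H3c1 was low on both irradiated arrays, at 6.72, 6.23 and 6.20 on non-irradiated, CDR and FLASH, with differences of -0.49 and -0.52. H3c14 went from 6.53 to 6.18 and 5.74, and its FLASH difference of -0.80 (1.74-fold) was the lowest of any detected member on that array. H3c10 was high on both, at 9.64, 10.0 and 9.84, or 0.38 and 0.21. H3c8 was at 0.25 on CDR and 0.02 on FLASH, and H3c15 read the same value, 5.24, on all 3 arrays. The H3 median was 0 in both comparisons, and under quantile normalisation and cyclic loess 0 H3 genes were more than 0.2 higher on FLASH. In the deposited values it was 1 of 5 detected H3 genes, beside 16.1% of all detected genes.

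H4 genes were 3, all detected. H4c12 read 8.45 with no irradiation, 8.00 after CDR and 8.78 after FLASH. It was thus lowest on CDR and highest on FLASH, at -0.45 and 0.33. H4c9 was at 0.26 on CDR and 0.19 on FLASH, and H4c8, close to the detection level, read 4.69, 4.43 and 4.69, low on CDR alone. The H4 medians of -0.26 and 0.19 rest on 3 genes.

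Genes listed for a single product had unlike differences. The RefSeq gene table gives several members as synonyms of each other, which marks copies with 1 protein product. In the set H2bc4, H2bc6 and H2bc8 the FLASH differences ran from -0.76 to -0.27, all lower by more than 0.2, and the CDR differences from -0.43 to 0. In the set H2bc7, H2bc13 and H2bc15 they ran from -0.44 to 0.07 on CDR and from -0.33 to 0.20 on FLASH. On CDR the widest spread was in the set H3c1, H3c8, H3c10 and H3c11, of which 3 were detected, with 0.87 between H3c1 and H3c10, against 0.73 on FLASH. H3c14 and H3c15 were 0.35 apart on CDR and 0.80 on FLASH. The 3 H4 genes, which encode the same protein, spanned 0.71 on CDR and 0.33 on FLASH.

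Neighbouring H2A and H2B genes also differed from each other. H2ac8 and H2bc8 are adjacent, and the 150-base stretch printed for H2bc8 overlaps the corresponding stretch of H2ac8 on the opposite strand. H2ac8, dim at 4.71, 4.71 and 4.68, stayed level while H2bc8 was lower. H2ac20 was higher on both irradiated arrays while its neighbour H2bc21 was at -0.17 on both. H2ac6 and its neighbour H2bc4 were both lower, at -0.61 against -0.29 on CDR and -0.79 against -0.27 on FLASH. H2ac4 was higher while H2bc3 was level, H2ac22 and H2bc22 were both level, and H2ac1 and H2bc1 were both under the detection level.

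Between the irradiated arrays 22 of 31 detected histone genes were within 0.2, or 71.0%, a smaller share than the 84.9% of all detected genes. The H4 gene H4c12 had the largest difference. Setting FLASH against CDR, the members at least 2-fold higher numbered 0, with 0.85% of 13184 detected genes as background, and those at least 2-fold lower 0, with 0.144%. Nothing is read from either 0, since the shares are small and the members few. At 1.5-fold, H4c12 was the 1 member higher (1.85% of detected genes) and 0 were lower (0.781%). More than 0.2 higher were 3 members and more than 0.2 lower 6, or 9.68% and 19.4%, against 7.3% and 7.84% of detected genes. With the arrays centred on their medians of named genes the split was 2 higher and 8 lower. H4c12 was higher by 0.78 (1.72-fold), exceeded by 1.23% of detected genes, H4c8 by 0.26 and H2ac21 by 0.22. Lower on FLASH were H2ac11 at -0.51, H1f4 at -0.45, H3c14 at -0.44, H2bc8 at -0.34, H2bc6 at -0.32 and H3c8 at -0.23. Members of each type but H4 were among the lower ones. H1f10 at 0.11 and H1f2 at -0.04 were among those within 0.2.

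**Figure D3:**
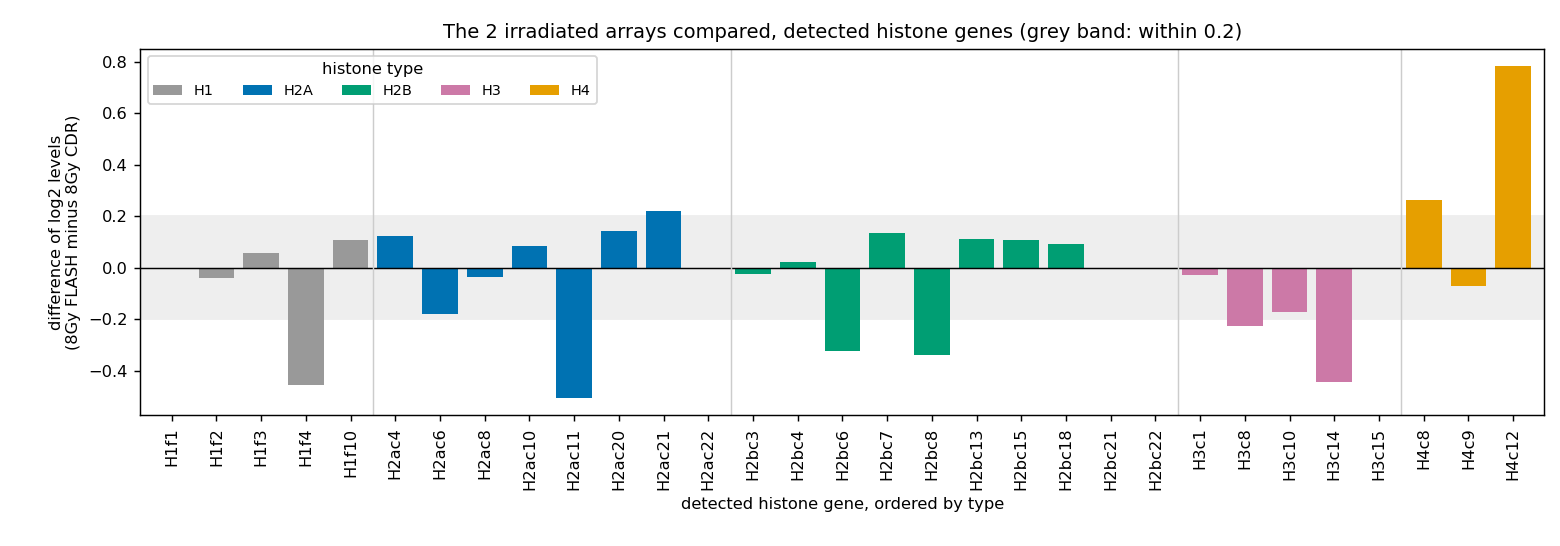
Difference of log2 levels between the 8Gy FLASH and 8Gy CDR arrays (vertical axis, FLASH minus CDR) for the 31 detected histone genes, coloured by histone type, 1 array per group; the grey band marks differences within 0.2. H4c12 at 0.78 is the tallest bar, and H2ac11 at -0.51 the lowest.

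Histone genes outside the naming rule were compared from a list of variants, of which 13 of 14 were measured and 11 detected on CDR and 12 on FLASH. The rule on symbols leaves out some genes of the histone clusters: 5 named genes outside it carry an older Hist symbol in RefSeq, namely H2bu2 (Hist3h2ba), H2aw (Hist3h2a), H4f16 (Hist4h4) and the pseudogenes H2bu1-ps and H2af-ps2. H2bu2, an H2B gene, read 7.90 with no irradiation, 6.69 after CDR and 6.55 after FLASH, and was 2.30-fold and 2.54-fold lower. H2aw, an H2A gene, read 7.45, 6.93 and 6.73, or -0.52 and -0.73. H2az2, a replication-independent H2A.Z gene, read 10.1, 9.63 and 9.48, or -0.42 and -0.57. These 3 genes were low on both irradiated arrays, and H2bu2 differed by more than any member. H4f16 was at -0.03 on both, H2bu1-ps at 0.27 on both, and H2af-ps2 was under the detection level on every array. Cenpa, the centromeric H3 variant, was higher at 0.37 and 0.43. The other replacement variants were level, with H2az1 at -0.06 and 0.02, H2ax, the variant phosphorylated at DNA breaks, at 0.06 and 0.04, H3f3a at 0.09 and 0, and H3f3b at -0.09 and -0.02. Macroh2a2 was above the detection level on the FLASH array only, at least 1.14-fold higher than on non-irradiated. The list's median was -0.06 on CDR and -0.02 on FLASH.

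Genes that make, cut and escort histones were set beside the members. Of 20 measured genes of histone mRNA transcription and 3′ processing 19 were detected, with medians of 0.09 on CDR and 0.03 on FLASH. On CDR 3 were more than 0.2 higher and 1 lower, and on FLASH 3 higher and 2 lower. Among all detected genes 16.6% were higher and 15.9% lower on CDR, and 16.1% and 16.8% on FLASH. With so few genes nothing is read from these counts. Rnu7, the U7 small nuclear RNA of histone mRNA cutting, read 6.29 with no irradiation, 4.29 after CDR and 3.53 after FLASH, the last under the detection level. It was 3.98-fold lower on CDR and at least 4.21-fold lower on FLASH. Among other factors of the same cutting step, the nuclease gene Cpsf3 was at 0.26 on CDR and 0.20 on FLASH, with Slbp at 0.14 and 0.08, Lsm11 at 0.09 on both and Lsm10 at -0.18 and -0.10. Npat, the coactivator of histone gene transcription, was at 0 on both, while Ccne1, cyclin E1, whose kinase complex phosphorylates that coactivator, was at 1.1 and 1.29. Histone chaperones, which carry new histones to chromatin, had 9 of 27 members more than 0.2 higher on CDR and 10 on FLASH. The share among all detected genes was 16.6% and 16.1%. More than 0.2 lower were 0 chaperone genes on either array, beside 15.9% and 16.8% of all detected genes. The chaperone median was 0.09 in both. Nasp was at 0.42 and 0.35, Asf1b at 0.21 and 0.24, Chaf1a at 0.16 and 0.30, and Chaf1b at -0.07 and -0.08.

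DNA replication and mitosis genes, which rise in cycling cells, differed in one direction where the histone genes split. Of 44 replication genes, 18 were more than 0.2 higher on CDR and 16 on FLASH, with 0 lower, and medians of 0.17 and 0.14. Among all detected genes 16.6% on CDR and 16.1% on FLASH were more than 0.2 higher, and 15.9% and 16.8% lower. Rrm2, a ribonucleotide reductase subunit, was at 1.12 and 1.21, Mcm2 at 0.09 on both, and Pcna, the polymerase clamp, at 0.02 and 0. Of 29 mitosis genes, 24 and 25 were more than 0.2 higher and 0 lower, with medians of 0.41 and 0.48 and Mki67 at 0.36 on both. Core histone members had 7 higher and 8 lower of 26 on CDR and 6 higher and 7 lower on FLASH. The shares of all detected genes given above are the background for the mitosis and core histone counts too. Whether the histone genes depart from these lists by more than the spread between samples cannot be tested with 1 array per group.

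**Figure D4:**
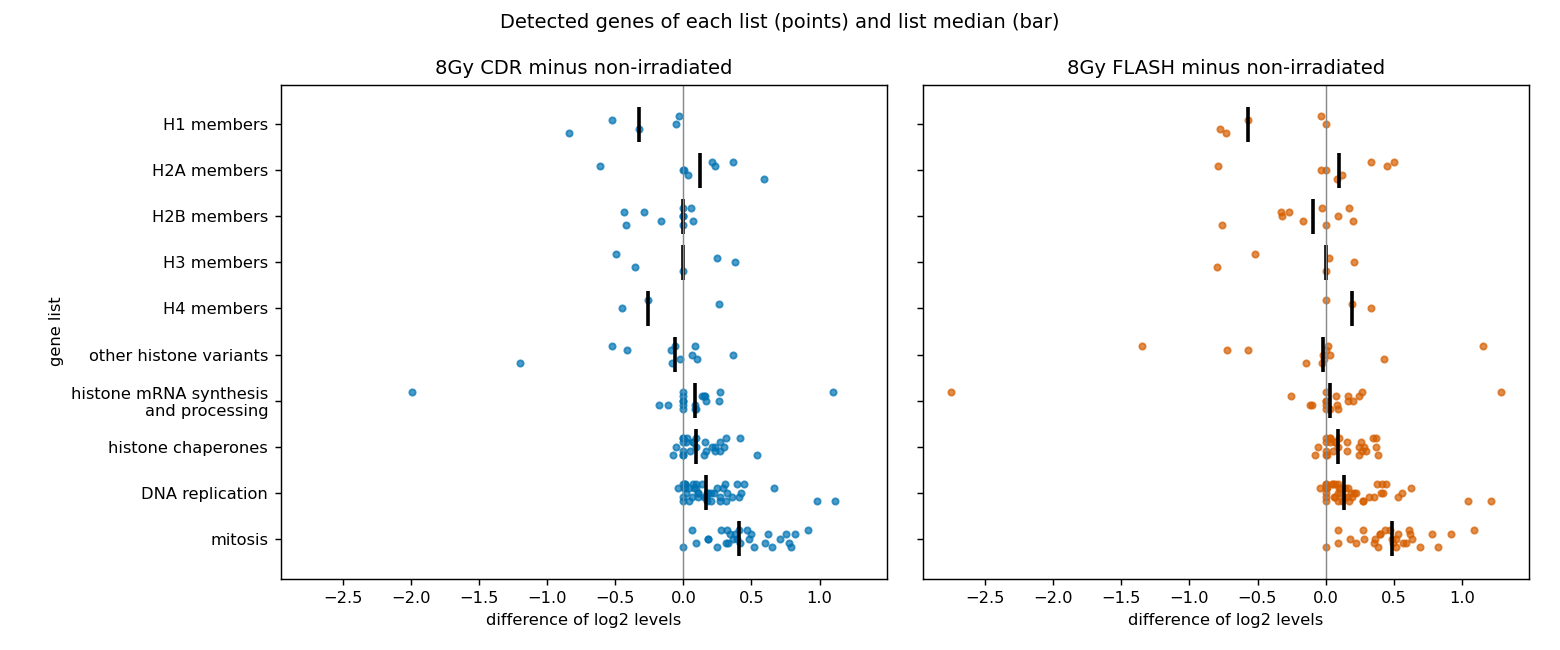
Difference of log2 levels from the non-irradiated array (horizontal axis) on the 8Gy CDR (left) and 8Gy FLASH (right) arrays, 1 array per group; points are detected genes of each list and the black bar is the list's median. Points of the H2A, H2B and H3 members lie on both sides of 0, while no mitosis gene lies below it.

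Marker genes of blood cell types also differed between the arrays. As background for the counts below, 15.9% of all detected genes were more than 0.2 lower on CDR and 16.8% on FLASH. More than 0.2 higher were 16.6% and 16.1%. All 10 measured LT-HSC markers, of 12 listed, were above the detection level on every array. Of these, 6 were more than 0.2 lower on CDR and 7 on FLASH, with 0 higher. Their mean log2 level was 7.21 with no irradiation, 6.42 after CDR and 6.54 after FLASH. All 9 measured erythroid markers, of 13 listed, were above the level on every array and more than 0.2 higher on both irradiated arrays. Their mean levels were 6.98, 7.93 and 8.13. Megakaryocyte markers were lower for 7 of 8 on CDR and 5 of 8 on FLASH, with mean levels of 7.38, 6.79 and 6.84, and 0 were higher. Mean levels of B cell markers were 6.24, 5.80 and 6.02, of T cell markers 4.79, 4.25 and 4.61, and of plasma cell markers 6.20, 5.55 and 6.18. These means include markers under the detection level. Above it on each array were 5 of 7 B cell and 6 of 7 plasma cell markers. Only 4, 3 and 4 of 9 T cell markers were, so most values in the T cell means lay under the level. Monocyte and dendritic cell markers had means of 6.53, 6.82 and 7.19 but were mixed. Of 10 detected, 6 were higher and 2 lower on CDR, and 5 higher and 3 lower on FLASH. They ran from Flt3 at -1.05 and -1.47 to H2-Eb1 at 1.06 and 2.36. Granulocyte markers had means of 8.75, 8.57 and 8.60 but pointed both ways, with 5 of 10 detected markers higher and 4 lower on CDR, from -2.25 (S100a9) to 2.17 (Lcn2), and a median difference of 0.27, and with 4 higher and 3 lower on FLASH. Mast cell markers, with means of 6.28, 6.32 and 6.71, also did, with 3 of 8 higher and 3 lower on CDR, from Prss34 at -2.71 to Tpsb2, at least 3.34-fold higher. The part of these differences in the histone values was not tested. In bulk samples fewer cells of a type and less RNA per cell cannot be told apart.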

How the data were processed

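The deposited table gives the authors' processed level of each of 25206 probe sets on a log scale on 3 arrays, read here as log2 from its range of 1.23 to 13.3. Partek is named, without a version, in the submitters' processing notes; for background correction, summarisation, normalisation and genome build, the sources used here give nothing. The platform's probe table gave 1 symbol to 23185 probe sets, several to 0 and none to 2021, and all 23185 symbols equalled RefSeq's.

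Values were used as deposited, and differences are differences of log2 values, with folds of 2 and, after the values were seen, log2 sizes over 0.2. With 1 array per group no test was made, and precision is limited by the number of arrays. Where the dimmer array lay under its detection level the fold is a lower bound against that level. Genes named were, per histone type and comparison, the 4 highest and 4 lowest detected members and every H1 member, up to 3 genes in each direction of the other lists, and Slbp, Npat, Rnu7, Asf1b, Chaf1a, Chaf1b, Nasp, H2az1, H2ax, H3f3a, H3f3b, Cenpa, Mki67, Pcna and Mcm2. Undetected members are named to account for them, and Lsm11, H4f16, H2bu1-ps and H2af-ps2 were added after their values were seen. Members and lists were chosen with earlier results of these data known. The alternatives tried were cyclic loess and quantile normalisation (limma 3.58.1, R 4.3.3), centring on the medians of named genes, 32 added before taking logs, every member unfiltered, a filter at the 99th percentile, dim values raised to the detection level, and folds of 1.5 and 3. Python 3.11.15, numpy 2.4.6, pandas 2.3.3 and matplotlib 3.10.9 were used. The detection step and the 2-fold calls were tested on simulated data, but the counts over 0.2 were not.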

Additional observations from a re-analysis of the deposited data

Results flagged for a closer look

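H4c12 was the single histone member that departed by at least 1.2-fold in opposite directions on the irradiated arrays. It was at -0.45 after CDR and 0.33 after FLASH, both relative to the same non-irradiated array. The share of all detected genes that did so was not counted, so nothing is read from there being 1 such member. The difference between these departures was not tested, since each group had 1 array.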

How the results depend on the processing

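At a threshold of 1.5-fold in place of 2-fold, the CDR array had 1 member higher (H2ac11) and 2 lower (H1f10 and H2ac6) than non-irradiated, the FLASH array had 5 lower (H1f4, H1f10, H2ac6, H2bc8 and H3c14), and 1 (H4c12) was higher on FLASH than on CDR. Over all detected members together, every other alternative kept the counts at 2-fold at 0, the medians within 0.1 of 0, and the counts at 0.2 within 1.5 times. By histone type, some counts of higher members moved further. Under cyclic loess they went from 4 to 2 for H2A on CDR and from 1 to 0 for H2B on FLASH, and for H3 on FLASH from 1 to 0 under both cyclic loess and quantile normalisation. Under centring they went from 1 to 2 for H4 on FLASH, and between FLASH and CDR from 1 to 0 for H2A, with the lower ones from 1 to 2. Under centring, quantile normalisation and cyclic loess no detected member more than 0.2 apart changed sign. H2ac4 and H2ac21 on CDR, H2bc7 and H3c10 on FLASH, and H2ac21 between FLASH and CDR came within 0.2 under at least 1 of them. No paired analysis was possible because each group had 1 array and the labels give no replicate numbers. Signal near the detection level limits H2ac8, H2bc6, H2bc22, H3c15 and H4c8.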
